A study of Saccharomyces cerevisiae with 18 samples.

Results

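The seripauperin genes PAU1 to PAU24 of Saccharomyces cerevisiae were examined together with 6 further anaerobic cell wall mannoprotein genes (DAN1, DAN4 and TIR1 to TIR4) and the sterol importer genes AUS1 and PDR11. They were taken by systematic name from a list of 32 genes. Of these, 31 were among the 6205 ORFs of the deposited table, and all 31 had a value on every array. PAU9 (YBL108C-A) was not analysed here. A member was counted as subtelomeric where it was among the 10 outermost measured ORFs of its chromosome arm by systematic number, which gave 18 subtelomeric members, all of them PAU genes, and 13 internal ones.

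RNA was taken from a strain lacking both DOT4 and UBP8 (labelled dot4ubp8 null and called the double null here), a dot4 null strain and a ubp8 null strain, each grown in YEPD, a rich glucose medium. Each null RNA was hybridised beside RNA of the wild type strain UCC6389 on arrays with 2 channels, 6 arrays for each genotype. The arrays of a genotype form 3 numbered sets, and a set holds 1 array with the null RNA in each channel. The labels give 1 strain number for each genotype, and 1 double null array (set 3, null RNA in channel 2) is labelled with the number given elsewhere to the ubp8 null. Separate cultures for the sets are not mentioned, and p-values here measure only the spread between sets, which may be technical. Growth phase and aeration of the cultures are not stated in the labels.

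Seripauperins are small serine-poor relatives of the serine-rich cell wall mannoproteins and form one of the largest gene families of this yeast, with most copies close to chromosome ends. Under low oxygen, yeast cells exchange several aerobic wall mannoproteins for the Dan, Tir and Pau proteins, and they import sterol through the ABC transporters Aus1 and Pdr11, because sterol synthesis needs oxygen. In aerated cells these genes are kept low by repressors that include Rox1 and Mot3, and Upc2 activates many of them when sterol or haem runs short. DOT4, now UBP10, and UBP8 encode proteases that remove ubiquitin from histone H2B. Ubp8 acts within the SAGA coactivator complex, and Ubp10 is known for its role in silencing near telomeres.

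Every value given is a log2 ratio, with the null strain over the wild type, unless it is called a fold or a difference. For each set the mean of its 2 arrays was taken, and the mean of 3 sets is given with the standard error of a limma fit over all ORFs. A gene was called where its p-value, after Benjamini-Hochberg adjustment across all 6205 ORFs, was under 0.05. Array values were read as channel 2 over channel 1, because the deleted genes were then low in the strains lacking them. UBP10 averaged -4.70 ± 0.08 in double null cells, -5.06 ± 0.08 in dot4 null cells and -0.17 ± 0.08 in ubp8 null cells (adjusted p = 0.108 for the last). UBP8 averaged -2.94 ± 0.09 in double null cells, -0.07 ± 0.09 in dot4 null cells (adjusted p = 0.52) and -2.94 ± 0.09 in ubp8 null cells. On the double null array labelled with the ubp8 null's number, both deleted genes were low, UBP10 at -4.67 and UBP8 at -3.38. On the ubp8 null arrays UBP10 read -0.27 to -0.05. Read in the channel order of the labels, which describe a Cy5 over Cy3 comparison, every sign below would be turned. In RNA from whole cultures, a change in every cell and a larger change in a share of cells cannot be told apart.

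Most seripauperin genes were higher than in wild type in each of the 3 null strains. The double null had 20 of 23 called higher, 0 lower, with a median of 1.12. The dot4 null had 21 called higher, 0 lower, with a median of 0.84. The ubp8 null had 20 called higher, 0 lower, with a median of 0.22. Of all ORFs, 35.3% were called higher in double null cells, 29.9% in dot4 null cells and 30.0% in ubp8 null cells, and the median of all ORFs was within 0.01 of 0 in each. A rise of at least 1.5-fold was far less common among all ORFs than a call. Among PAU genes 19 rose that much in double null cells, 20 in dot4 null cells and 0 in ubp8 null cells. Of all ORFs, 5.66%, 1.84% and 0.419% did so in the cells of the double null, the dot4 null and the ubp8 null.

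**Figure D1:**
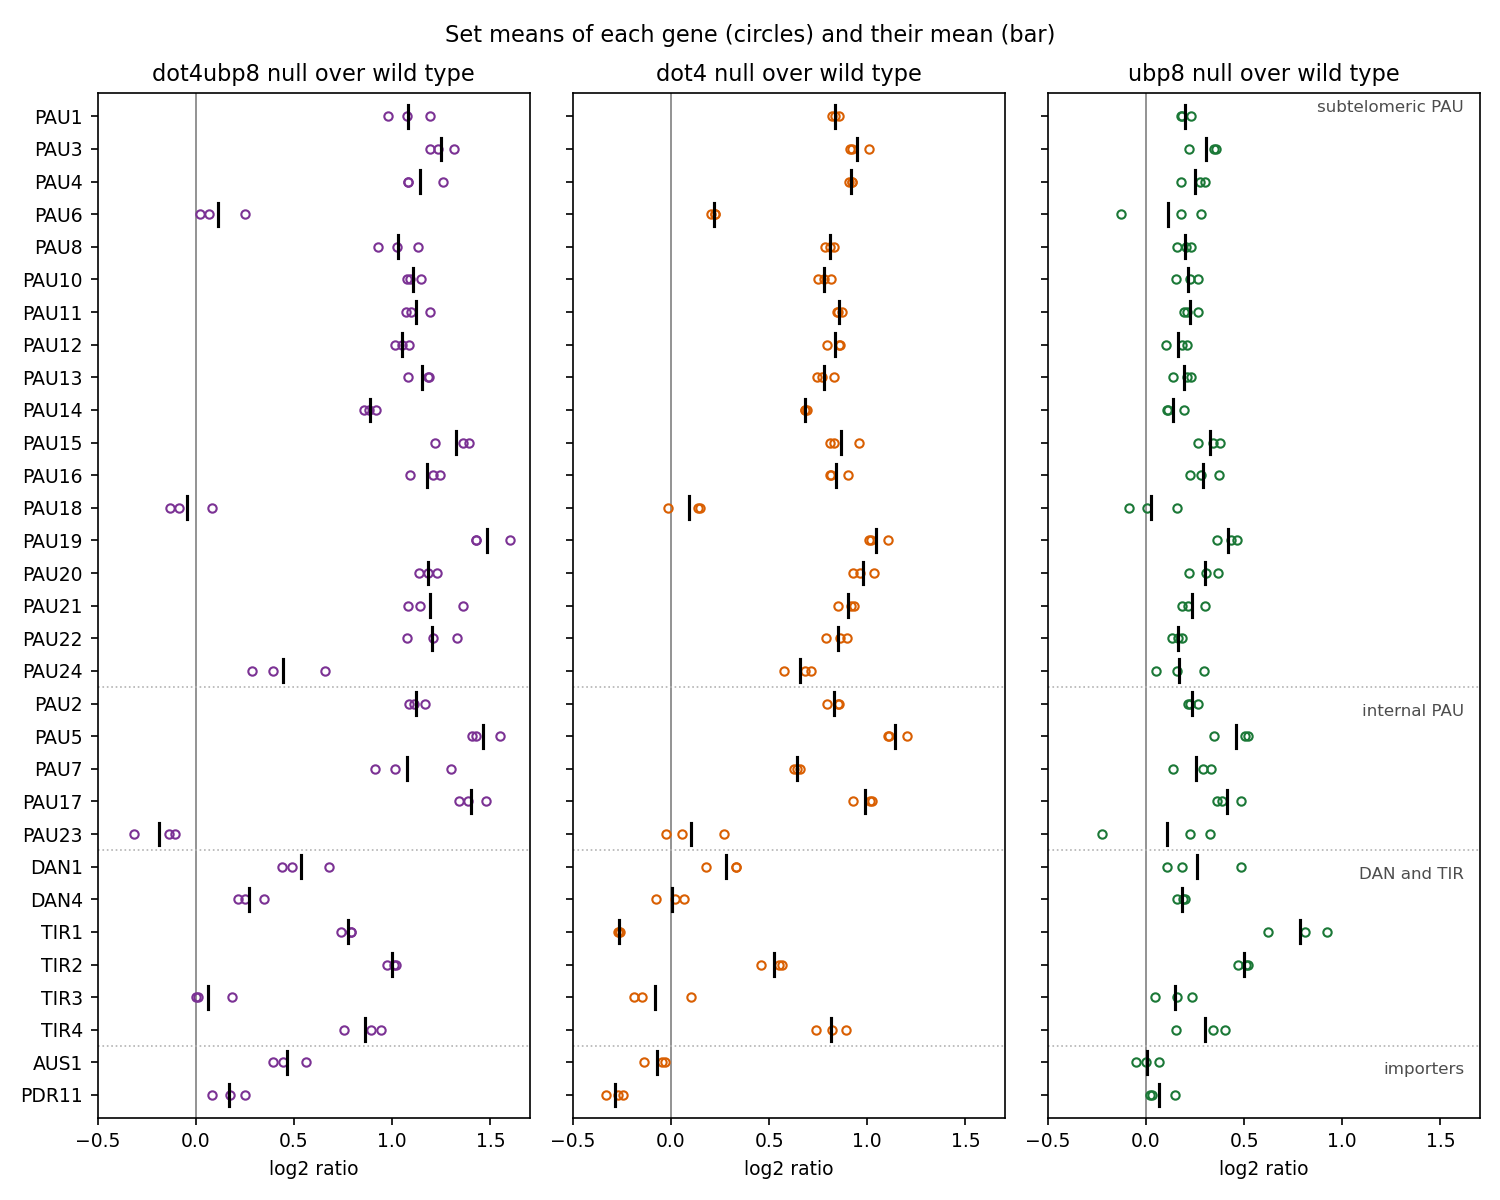
Log2 ratio of null over wild type of the 31 measured members, with a panel each for the double null, the dot4 null and the ubp8 null. Points are single sets and bars are the mean of 3 sets. PAU19 and PAU5 stand highest in double null cells at 1.48 and 1.46, while the means of PAU6, PAU18 and PAU23 lie between -0.19 and 0.22 in all panels.

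The highest double null values among the members were those of PAU19 (YMR325W), PAU5 (YFL020C) and PAU17 (YLL025W). PAU19 read 1.60, 1.43 and 1.43 in the sets of the double null, 1.11, 1.01 and 1.02 in dot4 null cells and 0.46, 0.43 and 0.36 in ubp8 null cells. Every double null set was above every dot4 null set, and these were above every ubp8 null set. Its mean of 1.48 ± 0.04 in double null cells is a 2.80-fold rise over wild type (limma, adjusted p = 5.43e-10).

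PAU5, which lies far from a chromosome end, read 1.43, 1.40 and 1.55 in double null cells, 1.20, 1.11 and 1.11 in dot4 null cells and 0.52, 0.51 and 0.34 in ubp8 null cells. The sets of the 3 genotypes again did not overlap. The rises were 2.75-fold in double null cells, 2.20-fold in dot4 null cells and 1.37-fold in ubp8 null cells, with limma adjusted p of 8.08e-10, 7.18e-09 and 1.17e-05. PAU17 showed the same order, with 1.40 ± 0.04 in double null cells, 0.99 ± 0.04 in dot4 null cells and 0.41 ± 0.04 in ubp8 null cells.

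A further 14 subtelomeric PAU genes gave values close to one another. They were PAU1 (YJL223C), PAU3 (YCR104W), PAU4 (YLR461W), PAU8 (YAL068C), PAU10 (YDR542W), PAU11 (YGL261C), PAU12 (YGR294W), PAU13 (YHL046C), PAU14 (YIL176C), PAU15 (YIR041W), PAU16 (YKL224C), PAU20 (YOL161C), PAU21 (YOR394W) and PAU22 (YPL282C), and each was called higher in all 3 null strains. Without centring the arrays, PAU1, PAU8, PAU12, PAU13, PAU14 and PAU22 were no longer called in ubp8 null cells (adjusted p of 0.0676 to 0.249). Their values were then 0.12 to 0.18, against 0.14 to 0.20 with centring. The standard error rose to 0.078 for each, against 0.027 to 0.042 with centring. In ubp8 null cells PAU14 also lost its call on the channel 1 arrays (adjusted p = 0.0527) and without set 2 (adjusted p = 0.0542), and PAU22 on the channel 2 arrays (adjusted p = 0.065). PAU15 averaged 1.32 ± 0.04 in double null cells, 0.87 ± 0.04 in dot4 null cells and 0.33 ± 0.04 in ubp8 null cells. PAU3 averaged 1.25, 0.95 and 0.31 in the same order, and PAU14, the lowest of the 14, averaged 0.89, 0.69 and 0.14. The other 11 lay between 1.03 and 1.20 in double null cells, between 0.78 and 0.98 in dot4 null cells and between 0.16 and 0.30 in ubp8 null cells.

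PAU6, PAU18, PAU23 and PAU24 (YBR301W) departed from this pattern. PAU6 (YNR076W) read 0.07, 0.02 and 0.25 in double null cells, 0.23, 0.23 and 0.20 in dot4 null cells and 0.18, 0.28 and -0.13 in ubp8 null cells. It was called higher in dot4 null cells, at 0.22 ± 0.07 (limma, adjusted p = 0.0137), and in neither other strain. That call was lost on the arrays with the null RNA in channel 1 (0.11, adjusted p = 0.192), without set 1 (adjusted p = 0.0833) and without the array labelled with another strain's number (adjusted p = 0.0605). In double null cells PAU6 was called higher on the channel 1 arrays (0.33, adjusted p = 0.00169) and read -0.10 on the channel 2 arrays. In ubp8 null cells it was called higher without set 3 (0.23, adjusted p = 0.00126). PAU18 (YLL064C) averaged -0.04 ± 0.05 in double null cells, 0.09 ± 0.05 in dot4 null cells and 0.03 ± 0.05 in ubp8 null cells, and none of these was called (limma, adjusted p of 0.462, 0.153 and 0.686). In dot4 null cells the 2 orientations of PAU18 went opposite ways. It was called lower on the channel 1 arrays (-0.15, adjusted p = 0.00873) and higher on the channel 2 arrays (0.33, adjusted p = 0.0186).

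PAU23 (YLR037C) lies well inside its chromosome arm. It read -0.32, -0.14 and -0.10 in double null cells, 0.27, 0.06 and -0.02 in dot4 null cells and 0.33, 0.22 and -0.22 in ubp8 null cells. Its sets spread more widely than those of PAU5, and it was called in no strain (limma, adjusted p of 0.0894, 0.348 and 0.322). In double null cells it was called lower without centring, on the channel 2 arrays, without set 3 and with each genotype fitted alone (-0.28 to -0.19, adjusted p of 0.0111 to 0.0448). It was called higher in dot4 null cells without centring (0.19, adjusted p = 0.0379) and in ubp8 null cells without set 3 (0.28, adjusted p = 0.00679). Among the PAU genes called higher in both the double null and the dot4 null, PAU24 alone had a lower mean in double null cells, 0.45 ± 0.06, than in dot4 null cells, 0.66 ± 0.06, and this difference was not called (limma, adjusted p = 0.0681). The ubp8 null gave 0.17 ± 0.06, and the sets were 0.29, 0.39 and 0.66 in double null cells, 0.68, 0.58 and 0.71 in dot4 null cells and 0.05, 0.30 and 0.16 in ubp8 null cells. On the channel 2 arrays PAU24 was not called in double null cells (0.36, adjusted p = 0.0573) or in ubp8 null cells (0.11, adjusted p = 0.574), and the ubp8 null call was also lost without centring, with a dye term and without set 2 (adjusted p of 0.109 to 0.309).

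Many PAU genes are near-identical copies, and the array's probes are not described in the sources used here. RNA of one copy may therefore have been measured at the spots of another, and the 19 PAU genes that rose at least 1.5-fold in double null cells are not 19 independent measurements. What share of their values comes from related copies was not tested. Coding lengths in RefSeq's R64 gene table ranged from 168 bases for PAU7 (YAR020C) to 495 bases for PAU21 and PAU22.

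Subtelomeric and internal members were then compared. In the double null, 16 of 18 subtelomeric and 11 of 13 internal members were called higher, and 15 subtelomeric and 7 internal members rose at least 1.5-fold. In the dot4 null, 17 subtelomeric and 7 internal members were called higher, and 16 and 5 rose at least 1.5-fold. In the ubp8 null, 16 subtelomeric and 10 internal members were called higher, with 0 and 1 past 1.5-fold. Of all ORFs, 35.3% were called higher in double null cells, 29.9% in dot4 null cells and 30.0% in ubp8 null cells. Those that rose at least 1.5-fold were 5.66%, 1.84% and 0.419% of all ORFs in the same order.

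The median of the subtelomeric members exceeded that of the internal members by 0.42, 0.33 and 0.30 in the sets of the double null, a mean of 0.35 ± 0.07 (SD, n = 3). In the dot4 null the excess was 0.53, 0.48 and 0.64, a mean of 0.55 ± 0.08. In the ubp8 null it was -0.10, -0.07 and 0.05, with a mean of -0.04 ± 0.08, and the sets lay on both sides of 0. With the 5 outermost ORFs of an arm in place of 10, the excess was 0.23 in double null cells and 0.29 in dot4 null cells, and with 15 it was 0.22 and 0.29.

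Of the 13 internal members, 8 were mannoprotein or sterol importer genes, and the other 5 were PAU genes. Among PAU genes alone, the difference between the positions was smaller than its spread between sets in double null cells and in dot4 null cells. PAU2 (YEL049W), PAU5, PAU7, PAU17 and PAU23 had a median of 1.12 in double null cells, 0.83 in dot4 null cells and 0.25 in ubp8 null cells, and the 18 subtelomeric ones had medians of 1.13, 0.84 and 0.21 in the same order. Taken within each set, the subtelomeric minus the internal median of PAU genes averaged -0.05 ± 0.14 in double null cells, -0.00 ± 0.06 in dot4 null cells and -0.07 ± 0.05 in ubp8 null cells (SD, n = 3). PAU2 sits 32 measured ORFs from the arm end and read 1.11, 1.08 and 1.17 in double null cells, 0.80, 0.85 and 0.85 in dot4 null cells and 0.23, 0.27 and 0.21 in ubp8 null cells. These values lie within the range of the subtelomeric PAU genes. PAU7 averaged 1.08 ± 0.06 in double null cells, 0.64 ± 0.06 in dot4 null cells and 0.25 ± 0.06 in ubp8 null cells, where it was not called without set 1 (adjusted p = 0.0712).

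**Figure D2:**
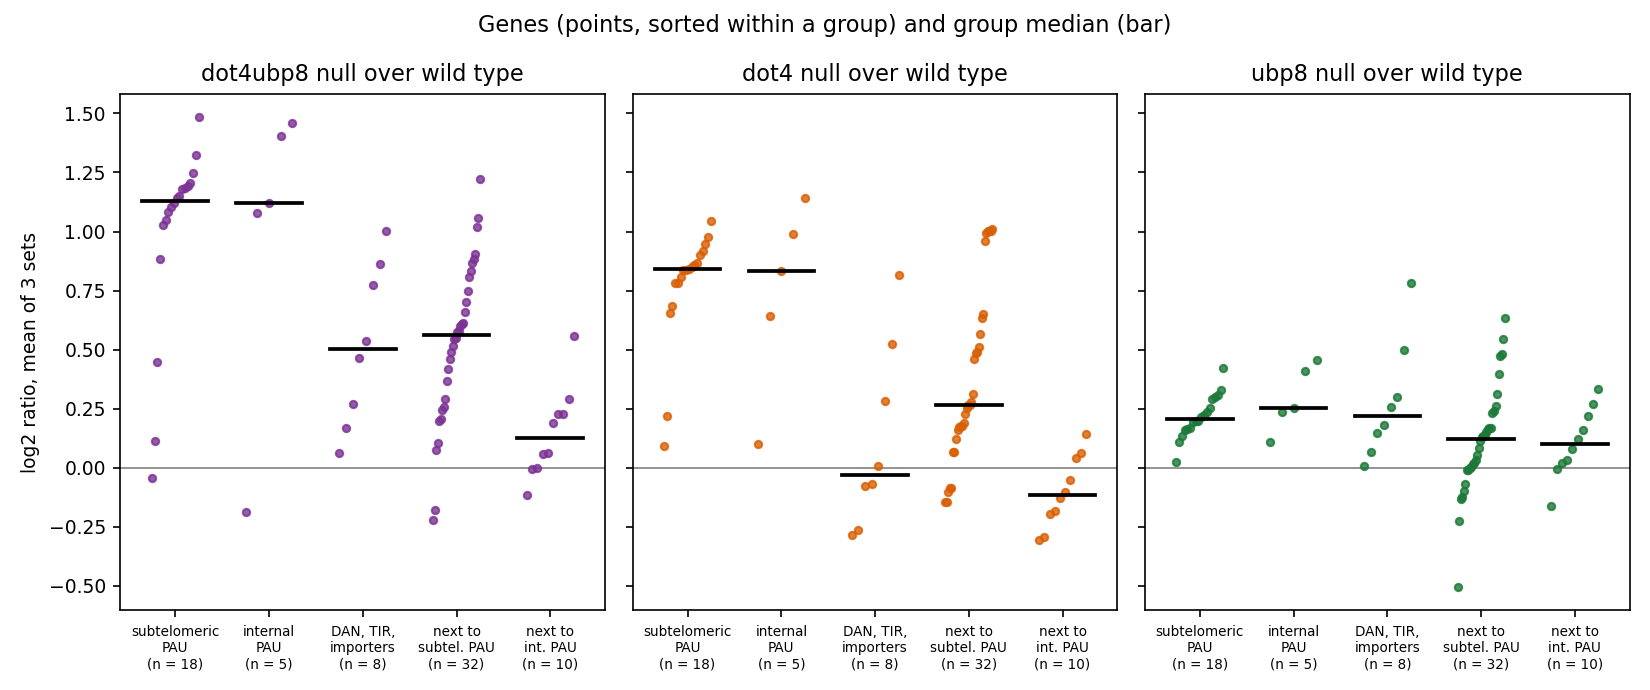
Log2 ratio to wild type on the vertical axis for subtelomeric PAU genes, internal PAU genes, the other internal members and the measured neighbours of the subtelomeric and internal PAU genes, with a panel for each null strain. Points are genes (means of 3 sets) and bars are medians. Subtelomeric and internal PAU genes have medians of 1.13 and 1.12 in double null cells, and the other internal members have a median of 0.50.

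The other 302 subtelomeric ORFs had lower medians than the subtelomeric PAU genes. In the double null 214 were called higher and 41 lower, with a median of 0.29, and 22.8% rose at least 1.5-fold. In the dot4 null 177 were called higher and 52 lower, with a median of 0.16, and 16.9% rose that much. In the ubp8 null 139 were called higher and 50 lower, with a median of 0.09, and 1.66% rose that much. Of all ORFs, 35.3% were called higher and 35.2% lower in double null cells. The shares were 29.9% and 32.1% in dot4 null cells, and 30.0% and 28.7% in ubp8 null cells. A rise of at least 1.5-fold was called for 5.66%, 1.84% and 0.419% of all ORFs in the same order. Some subtelomeric families are also multicopy, so the 302 ORFs are not independent of each other.

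On each side of a member, the nearest measured ORF that is no member was counted, among the ORFs matched to RefSeq's gene table. Measured ORFs without a match were passed over, so some may lie between a member and its neighbour. The 32 neighbours of subtelomeric PAU genes had 28 called higher and 1 lower in double null cells (median 0.56), 25 and 0 in dot4 null cells (median 0.27), and 16 and 4 in ubp8 null cells (median 0.12). The 10 neighbours of internal PAU genes had 5 called higher and 1 lower in double null cells (median 0.12), 1 and 6 in dot4 null cells (median -0.12), and 4 and 1 in ubp8 null cells (median 0.10). Of all ORFs, 35.3% were called higher and 35.2% lower in double null cells. The shares were 29.9% and 32.1% in dot4 null cells, and 30.0% and 28.7% in ubp8 null cells. The medians of the PAU genes themselves were higher than those of their neighbours in all 3 strains, at both positions.

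The neighbours with the largest called changes were YLR460C and YCR102C. YLR460C, next to PAU4, averaged 1.22 in double null cells, 0.65 in dot4 null cells and 0.63 in ubp8 null cells. YCR102C, the neighbour of PAU3 by the gene table, averaged 1.06, 0.57 and 0.48 in the same order. By systematic number YCR102C is the 7th measured ORF from the arm end and PAU3 is the 4th. SEO1, which encodes a putative permease and lies next to PAU8, averaged 1.02 ± 0.08 in double null cells, 0.28 ± 0.08 in dot4 null cells and 0.23 ± 0.08 in ubp8 null cells. Its single-strain values turned sign on the arrays with the null RNA in channel 2 (-0.14 in dot4 null cells and -0.08 in ubp8 null cells). YRF1-7, a telomeric Y prime helicase gene next to PAU22, read 0.55 in double null cells, 1.01 in dot4 null cells and 0.17 in ubp8 null cells, and Y prime genes too are near-identical copies.

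The anaerobic mannoprotein genes outside the PAU family differed more among themselves. In the double null 5 of 6 were called higher and 0 lower (median 0.65). In the dot4 null 3 were called higher and 1 lower (median 0.14), against 32.1% of all ORFs called lower there. In the ubp8 null all 6 were called higher (median 0.28), but on the channel 2 arrays alone 2 were called higher and 4 were not called. Shares of all ORFs called higher were 35.3% in double null cells, 29.9% in dot4 null cells and 30.0% in ubp8 null cells. TIR2 (YOR010C) and TIR4 (YOR009W) rose in each strain, TIR1 (YER011W) rose in 2 and fell in the other, and TIR3 (YIL011W) lay within 0.15 of 0.

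TIR1, which encodes a cold-shock and anaerobically induced wall mannoprotein, read 0.74, 0.79 and 0.79 in double null cells, -0.26, -0.27 and -0.27 in dot4 null cells and 0.92, 0.81 and 0.62 in ubp8 null cells. All dot4 null sets were below 0 and all others above it. The mean was 0.77 ± 0.05 in double null cells (limma, adjusted p = 9.68e-08), -0.26 ± 0.05 in dot4 null cells (adjusted p = 0.000467) and 0.78 ± 0.05 in ubp8 null cells (adjusted p = 1.17e-06). The call in dot4 null cells ended without centring the arrays (-0.17, adjusted p = 0.0638) and on the arrays with the null RNA in channel 2 (-0.12, adjusted p = 0.136).

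TIR2 read 1.02, 1.01 and 0.98 in double null cells, 0.57, 0.55 and 0.46 in dot4 null cells and 0.51, 0.52 and 0.47 in ubp8 null cells. The sets of the double null were apart from those of both single nulls, whose own sets overlapped. TIR4 read 0.89, 0.75 and 0.94 in double null cells, 0.89, 0.74 and 0.82 in dot4 null cells and 0.40, 0.34 and 0.16 in ubp8 null cells. Here the double null and the dot4 null overlapped, and both were above the ubp8 null. On the channel 2 arrays TIR4 was not called in ubp8 null cells (0.25, adjusted p = 0.0564).

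DAN1 (YJR150C) and DAN4 (YJR151C) are adjacent genes that lie 13th and 12th from their arm's end, just outside the limit used for subtelomeric members. PAU4, at 7th, was the deepest member inside it. DAN1 averaged 0.54 ± 0.07 in double null cells, 0.28 ± 0.07 in dot4 null cells and 0.26 ± 0.07 in ubp8 null cells, and all 3 were called. On the arrays with the null RNA in channel 2 it was not called in dot4 null cells (0.11, adjusted p = 0.147) or in ubp8 null cells (-0.03, adjusted p = 0.696), and without set 1 the ubp8 null call ended (0.15, adjusted p = 0.0675). DAN4 averaged 0.27 ± 0.03 in double null cells, 0.01 ± 0.03 in dot4 null cells and 0.18 ± 0.03 in ubp8 null cells, and the dot4 null value was not called (limma, adjusted p = 0.894). DAN4 lost its call in double null cells on the channel 1 arrays (0.097, adjusted p = 0.141), and in ubp8 null cells without centring (adjusted p = 0.0983) and on the channel 2 arrays (0.083, adjusted p = 0.454). TIR3 averaged 0.06 ± 0.06 in double null cells, -0.08 ± 0.06 in dot4 null cells and 0.15 ± 0.06 in ubp8 null cells, where its adjusted p was 0.0489 (limma), and 0.0758 with the set number as a block. That call was also lost in 6 other alternatives (adjusted p of 0.0612 to 0.543).

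The sterol importer genes were the only members whose single-strain values lay at or below 0.07 while the double null was called higher. AUS1 (YOR011W) read 0.56, 0.44 and 0.39 in double null cells, -0.14, -0.03 and -0.04 in dot4 null cells and -0.05, -0.00 and 0.07 in ubp8 null cells. The double null sets were above all others. Its mean was 0.47 ± 0.04 in double null cells (limma, adjusted p = 1.15e-06), -0.07 ± 0.04 in dot4 null cells (adjusted p = 0.129) and 0.01 ± 0.04 in ubp8 null cells (adjusted p = 0.905). AUS1 lies next to TIR2, with TIR4 on the far side of TIR2, and both TIR genes were higher in all 3 strains.

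PDR11 (YIL013C) read 0.25, 0.18 and 0.08 in double null cells, -0.27, -0.25 and -0.33 in dot4 null cells and 0.15, 0.02 and 0.03 in ubp8 null cells. It was called higher in double null cells at 0.17 ± 0.04 (limma, adjusted p = 0.00174) and lower in dot4 null cells at -0.28 ± 0.04 (adjusted p = 7.46e-05), and was not called in ubp8 null cells at 0.07 ± 0.04 (adjusted p = 0.148). Without centring the arrays, the double null call ended (adjusted p = 0.066).

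**Figure D3:**
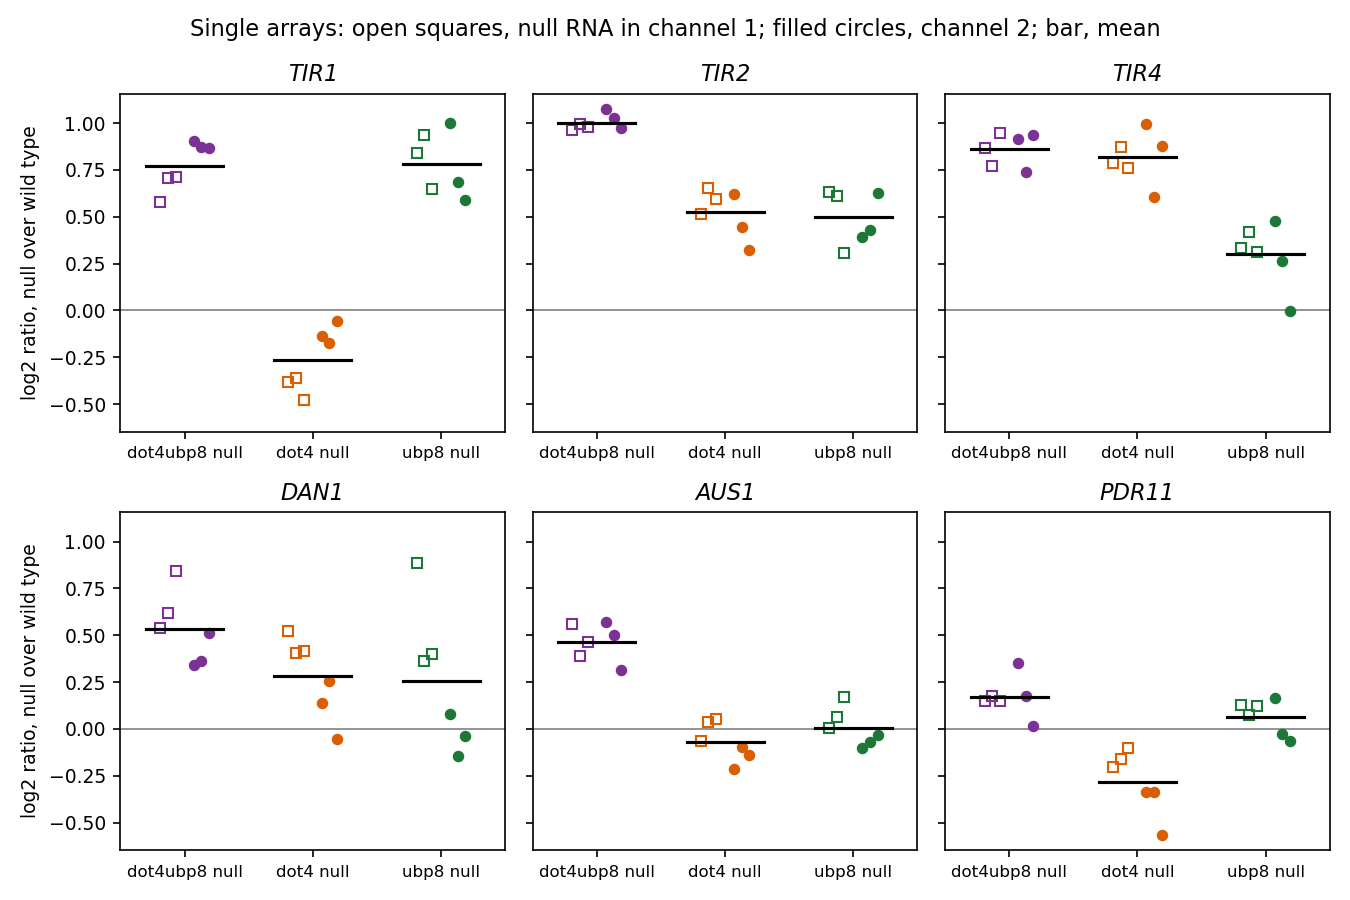
Single array values, as log2 of null over wild type, of TIR1, TIR2, TIR4, DAN1, AUS1 and PDR11 in the cells of the double null, the dot4 null and the ubp8 null, with the channel of the null RNA marked. For TIR1, the dot4 null arrays lie between -0.48 and -0.06, and the double null and ubp8 null arrays lie between 0.58 and 0.999.

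Over all 31 members, 27 were called higher and 0 lower in double null cells. There were 24 higher and 2 lower in dot4 null cells, and 26 higher and 0 lower in ubp8 null cells. Shares of all ORFs in the same order were 35.3%, 29.9% and 30.0% called higher, and 35.2%, 32.1% and 28.7% called lower. In ubp8 null cells 26 members were called higher on the channel 1 arrays alone and 20 on the channel 2 arrays alone. Leaving out the array labelled with the number of another strain, the counts higher were 27, 23 and 25. Without centring the arrays, the ubp8 null count fell to 17 higher. The share of all ORFs called without centring is not given here. The median of all ORFs without centring was -0.00 in double null cells, 0.08 in dot4 null cells and -0.01 in ubp8 null cells.

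The genotypes were then compared with each other, all against the same wild type strain. The double null was above the dot4 null for 25 members and below it for 0, against 29.0% of all ORFs called higher and 29.2% lower. Among PAU genes 19 of 23 were higher, with a median difference of 0.29. The count of members depended on the processing. Without centring, 9 members were higher and 2 lower. The standard error of each difference that lost its call was then 0.11, against 0.051 for PAU1 with centring. With arrays scaled to a common spread, 17 of the 25 members kept their call. PAU4, PAU8 and PAU20 then differed by 0.096, 0.099 and 0.075 and were among those no longer called (limma, adjusted p of 0.156, 0.125 and 0.303). The largest difference among the members was that of TIR1, at 1.04 ± 0.06 (limma, adjusted p = 1.31e-06), and AUS1 and PDR11 differed by 0.54 ± 0.05 and 0.45 ± 0.05. TIR4 differed by 0.05 ± 0.07 (adjusted p = 0.605).

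The double null was above the ubp8 null for 24 members and below it for 0, against 23.2% of all ORFs called higher and 21.0% lower. The PAU genes had 20 of 23 higher, with a median difference of 0.89, and PAU19 differed by 1.06 ± 0.05. TIR1 differed by -0.01 ± 0.06 (limma, adjusted p = 0.917). The dot4 null was above the ubp8 null for 21 members and below it for 4, against 27.9% of all ORFs called higher and 30.2% lower. The 21 were 20 PAU genes, with a median over the family of 0.60, and TIR4 at 0.52 ± 0.07. The 4 that were lower in dot4 null cells than in ubp8 null cells were TIR1 at -1.05 ± 0.06, PDR11 at -0.35 ± 0.05, TIR3 at -0.22 ± 0.08 and DAN4 at -0.18 ± 0.05. Of these, TIR3 lost its call in 6 alternatives (-0.22 to -0.056, adjusted p of 0.0582 to 0.726), DAN4 in 5 (-0.23 to -0.073, adjusted p of 0.0705 to 0.658) and PDR11 without centring (-0.25, adjusted p = 0.0759).

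The double null was last set against the sum of the single nulls, which asks whether the 2 deletions add on the log2 scale. For most members they did not differ beyond the threshold. Of 31 members 4 were called higher than the sum and 1 lower, against 11.9% of all ORFs called higher and 8.43% lower. The median over the PAU genes was 0.04, with a range from -0.40 for PAU23 to 0.19 for PAU22, and neither of these was called (limma, adjusted p of 0.0985 and 0.0856).

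AUS1 exceeded the sum by 0.53 ± 0.07 (limma, adjusted p = 0.000678), and its adjusted p was under 0.05 in every alternative run. PDR11 exceeded it by 0.39 ± 0.06 (adjusted p = 0.00298), which was no longer called without centring (adjusted p = 0.272) or without set 2 (adjusted p = 0.0688). TIR1 at 0.25 ± 0.08 and PAU13 at 0.18 ± 0.05 were also above the sum, and PAU24 at -0.38 ± 0.11 was below it, with adjusted p of 0.0434, 0.0444 and 0.0372. Each of these 3 lost its call in several alternatives, and TIR1 and PAU13 read 0.00 and 0.02 where the arrays were scaled to a common spread. TIR2 differed from the sum by -0.02 ± 0.05 (adjusted p = 0.77) and PAU5 by -0.14 ± 0.07 (adjusted p = 0.194).

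**Figure D4:**
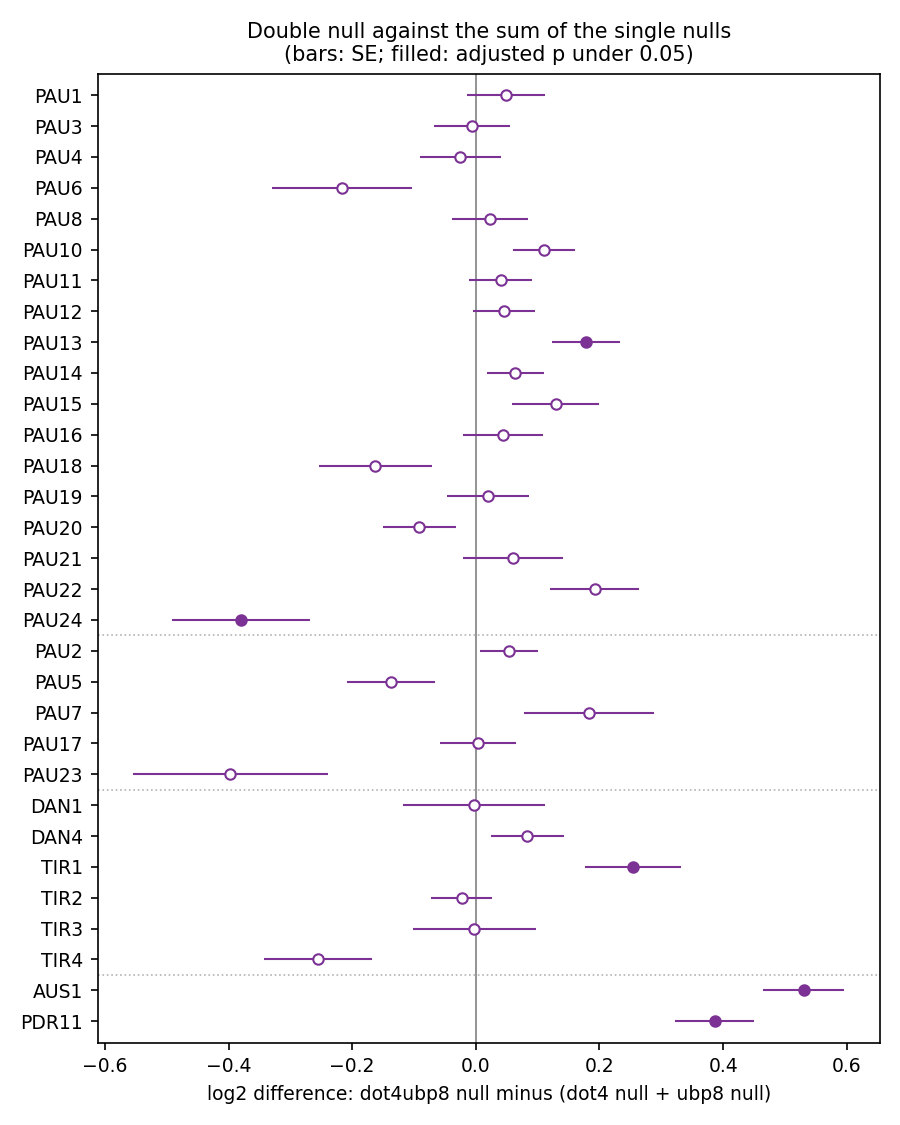
Difference between the double null and the summed single nulls for each measured member, as a difference of log2 ratios with the standard error of the fit. AUS1 and PDR11 stand highest at 0.53 and 0.39, and most PAU genes lie near 0.

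Of 11 regulators of anaerobic genes, 5 were called higher and 4 lower in double null cells, 7 and 1 in dot4 null cells, and 2 and 6 in ubp8 null cells. All ORFs had 35.3% higher and 35.2% lower in double null cells, 29.9% and 32.1% in dot4 null cells, and 30.0% and 28.7% in ubp8 null cells, so the double null counts lay near those shares. Without centring the arrays, 3 were higher and 2 lower in double null cells. ROX1, which encodes the haem-dependent repressor of hypoxic genes, had the largest rise of the 11, at 0.82 ± 0.03 in double null cells, 0.55 ± 0.03 in dot4 null cells and 0.24 ± 0.03 in ubp8 null cells (limma, adjusted p of 1.55e-09, 5.91e-08 and 4.11e-05). MOT3, a second repressor gene, averaged 0.24 in double null cells, 0.23 in dot4 null cells and 0.06 in ubp8 null cells, the last not called (adjusted p = 0.0997). UPC2, the sterol-sensing activator gene, averaged 0.14 in double null cells, 0.14 in dot4 null cells and 0.09 in ubp8 null cells, all called, and its paralog ECM22 averaged 0.25, 0.23 and -0.06, the last not called (adjusted p = 0.128). On the arrays with the null RNA in channel 2, UPC2 read -0.005 in dot4 null cells and -0.037 in ubp8 null cells.

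SUT1 and SUT2, regulators of sterol uptake, averaged -0.17 and 0.17 in double null cells, 0.37 and 0.36 in dot4 null cells and -0.27 and 0.07 in ubp8 null cells, and only the 0.07 was not called. The general corepressor genes TUP1 and CYC8 averaged -0.17 and 0.01 in double null cells, -0.15 and 0.22 in dot4 null cells and -0.24 and -0.14 in ubp8 null cells, and only the 0.01 was not called. MGA2 and SPT23, activators of the fatty acid desaturase gene OLE1, averaged -0.55 and -0.19 in double null cells, -0.12 and 0.03 in dot4 null cells, where neither was called, and -0.31 and -0.30 in ubp8 null cells. HAP1, the haem-responsive activator gene, averaged -0.16 in double null cells, -0.04 in dot4 null cells and -0.26 in ubp8 null cells, and only the last was called.

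Of 11 other genes known to be induced at low oxygen, 5 were called higher and 6 lower in double null cells (median -0.16), 2 and 7 in dot4 null cells (median -0.20), and 6 and 3 in ubp8 null cells (median 0.09), beside the shares of all ORFs just given. Without centring the arrays, 2 were lower in dot4 null cells and 2 higher in ubp8 null cells. CYC7 and COX5B, hypoxic isoforms of respiratory chain proteins, averaged 0.72 and 0.62 in double null cells, 0.03 and -0.30 in dot4 null cells and 0.23 and 0.32 in ubp8 null cells, and only the 0.03 was not called. HEM13, a haem synthesis gene repressed by Rox1, averaged 0.23 in double null cells, 0.36 in dot4 null cells and 0.09 in ubp8 null cells. OLE1 averaged -0.66, -0.32 and -0.26, and the iron transporter gene FET4 averaged -0.58, 0.16 (not called) and -0.45, in the same order.

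Of 24 ergosterol synthesis genes, 7 were called higher and 10 lower in double null cells, 2 and 13 in dot4 null cells, and 8 and 6 in ubp8 null cells. Those called higher were 29.2%, 8.33% and 33.3% of the list. Of all ORFs, 35.3% were called higher and 35.2% lower in double null cells. The shares were 29.9% and 32.1% in dot4 null cells, and 30.0% and 28.7% in ubp8 null cells. The counts called higher in the double null and the ubp8 null thus lay near the shares of all ORFs. ERG28 and ERG25, both of the demethylation step at sterol carbon 4, averaged 0.63 and 0.40 in double null cells, -0.18 and -0.24 in dot4 null cells and 0.41 and 0.39 in ubp8 null cells. ERG10, at the entry of the pathway, averaged -0.47, -0.17 and -0.14 in the same order, and the single nulls turned to 0.12 and 0.001 on the arrays with the null RNA in channel 2. ERG26 and ERG4 had the lowest values of the list in dot4 null cells, both at -0.27, against 0.23 and 0.12 in ubp8 null cells. Without centring the arrays 0 of the 24 were called lower in dot4 null cells, 2 were called higher in double null cells, and 3 were called higher and 2 lower in ubp8 null cells. HMG2 belongs to both this list and the hypoxic one.

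Mannoproteins of the aerobic cell wall were counted as well. Of 10 measured, 5 were called higher and 2 lower in double null cells, 1 and 6 in dot4 null cells, and 6 and 1 in ubp8 null cells. Of all ORFs, 35.3% were called higher and 35.2% lower in double null cells. The shares were 29.9% and 32.1% in dot4 null cells, and 30.0% and 28.7% in ubp8 null cells. With the null RNA in channel 1 alone, 2 were higher and 5 lower in double null cells, and with channel 2 alone 8 were higher and 1 lower. TIP1, a relative of the TIR genes, was lower in each strain, at -1.31 ± 0.05 in double null cells, -0.76 ± 0.05 in dot4 null cells and -0.22 ± 0.05 in ubp8 null cells (limma, adjusted p of 4.3e-09, 4.57e-07 and 0.00276). CWP1 averaged 0.76 in double null cells, -0.32 in dot4 null cells and 0.53 in ubp8 null cells, an order of signs like that of TIR1. SED1 averaged -0.61 ± 0.07 in dot4 null cells and was not called in double null cells or ubp8 null cells, both at -0.12. The mean of CCW12 was above 0 in each strain, but on the channel 1 arrays alone it was below 0 in each. Its direction thus depended on the orientation.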

How the data were processed

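RNA of 3 null strains was hybridised beside wild type RNA on 18 arrays. The values deposited by the authors are log2 ratios, 1 for each ORF on each array. How they corrected background and normalized, the array design and the genome build are not given in the sources used. Without channel intensities, no filter on dim spots was set. A stand-in value of 16.61 (2 values) and 9 empty values were treated as missing. Each array was centred on its median, values with the null RNA in channel 1 were reversed in sign, and the 2 arrays of a set were averaged. The 9 set means were fitted with limma 3.58.1 (lmFit and eBayes) in R 4.3.3 with a mean for each genotype and no block, and p-values were adjusted over 6205 ORFs, of which 0 were left out. The number of arrays limits the precision. A single spread per ORF is estimated over genotypes, and the median SD between sets was 0.064 in double null cells, 0.041 in dot4 null cells and 0.052 in ubp8 null cells.

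Gene names came from RefSeq's R64 table, which matched 5705 ORFs and was used for names, coding lengths and neighbours only. Sequences of the members were not used here, so the planned comparison of promoter motifs and proteins was not made. All members are named, with the deleted genes, every gene of the regulator list, the largest called genes of the other lists in each genotype and the 4 neighbours with the largest changes. The members and lists were chosen with earlier results of these data known. The procedure was tested on simulated data. Alternatives left out the centring, an orientation, a set or 1 array, scaled the arrays, fitted genotypes alone or single arrays with a dye term, used robust moderation, added the set number as a block, or moved the subtelomeric limit.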

Additional observations from a re-analysis of the deposited data

Results flagged for a closer look

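On 3 arrays a member's value stood far from the other 5 arrays of its genotype by Dixon's criterion. Chance gives about 1 in 20 of the 99 groups tested. PAU11 read 1.31 on the double null array of set 1 with the null RNA in channel 1, against 1.03 to 1.11 on the other double null arrays. PAU17 read 0.78 on the dot4 null array of set 3 with the null RNA in channel 2, against 0.97 to 1.08 on the others. PAU18 read 0.21 on the double null array of set 3 with the null RNA in channel 2, against -0.15 to -0.06 on the others, and this is the array whose label carries the ubp8 null strain number.

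Some genes differed in double null cells from the sum of the single nulls (limma, adjusted over all ORFs), as did 11.9% of all ORFs upward and 8.43% downward. The members were AUS1 at 0.53 (adjusted p = 0.000678), PDR11 at 0.39 (0.00298), TIR1 at 0.25 (0.0434), PAU13 at 0.18 (0.0444) and PAU24 at -0.38 (0.0372). Among the regulators, TUP1 differed by 0.22, and SUT1 and SUT2 by -0.26 each. Among the hypoxic and sterol genes, COX5B differed by 0.60, CYC7 by 0.46, ERG28 by 0.41, ERG4 by 0.30, ERG25 by 0.25 and HEM13 by -0.23. The aerobic wall genes SED1 and CWP1 differed by 0.62 and 0.55, and TIP1 by -0.32. Of the neighbours, SEO1 differed by 0.51 and YRF1-7 by -0.63. Many of these calls of genes that are no members, counted with that of UBP10, did not hold in the alternatives. Without set 2, 5 were kept and 10 lost. Without set 1, 7 were kept and 8 lost, and without centring 6 were kept and 9 lost. On the channel 1 arrays alone 3 turned sign.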

How the results depend on the processing

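Over the members and alternatives run, called genotype values kept their direction and call in 992 cases, lost the call in 34 and turned sign in 1. Called differences between genotypes or from the sum were kept in 870 cases, lost in 77 and turned in 1. These totals pool alternatives of unlike weight. Robust moderation and the use of only ORFs with all 18 values kept 79 of 79 differences each. Without centring 55 were kept and 24 lost, and with scaled arrays 67 were kept and 12 lost. For the other named genes, called genotype values were kept in 943 cases, lost in 48 and turned in 10. Their called differences from the sum were kept in 133 cases, lost in 43 and turned in 4. The number of sets and the spread shared over genotypes limit the precision.

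Without centring, members higher fell to 17 in ubp8 null cells, to 9 in double null cells over dot4 null cells and to 1 in double null cells over the sum. Members lower were then 1 in double null cells, 1 in dot4 null cells, 1 in dot4 null cells over ubp8 null cells, 2 in double null cells over dot4 null cells and 2 over the sum. With arrays scaled to a common spread, members lower were 1 in double null cells over dot4 null cells, 1 over ubp8 null cells and 5 over the sum, where 2 were higher. With channel 1 alone, 2 members were higher than the sum and 3 lower. With channel 2 alone, members lower were 1 in double null cells, 1 in double null cells over dot4 null cells and 2 in dot4 null cells over ubp8 null cells. With each genotype fitted alone, 1 member was lower in double null cells. Without the array labelled with the ubp8 null strain number, 2 were lower in double null cells over dot4 null cells. Leaving out a set in turn gave 0 to 1 members lower in double null cells, 0 to 3 in double null cells over dot4 null cells, 0 to 2 over ubp8 null cells, 0 to 5 below the sum, 1 to 3 above it, and 2 to 4 lower in dot4 null cells over ubp8 null cells.

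The excess of the subtelomeric over the internal median was 0.43 in double null cells and 0.47 in dot4 null cells with channel 1 alone, and 0.25 in double null cells with channel 2 alone. It was 0.23 and 0.29 with 5 outermost ORFs, 0.22 and 0.29 with 15, and 0.42 in dot4 null cells in gene table order. Among PAU genes it was, in dot4 null cells, 0.084 with channel 1 alone, -0.074 with channel 2 alone and -0.10 with 5 outermost ORFs, and -0.12 in ubp8 null cells with channel 1 alone.

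Among genotype values not called in the main fit, signs turned in 17 cases for members and in 16 for the other named genes. Signs of called values also turned, as counted above, and some values that turned were far from 0. The cause was not tested. Without centring, AUS1 was 0.020 in dot4 null cells and -0.0077 in ubp8 null cells, and HAP1, TIR3 and UBP8 were 0.054, 0.012 and 0.019 in dot4 null cells. With scaled arrays, AUS1 was -0.0038 in ubp8 null cells and DAN4 -0.000356 in dot4 null cells. With channel 1 alone, the double null had CCW12 at -0.031 and CYC8 at -0.12. The dot4 null had AUS1 at 0.0087, CCW12 at -0.57, HAP1 at 0.32, MGA2 at 0.041 and PAU18 at -0.15. The ubp8 null had CCW12 at -0.22, MOT3 at -0.055, PAU18 at -0.094 and YRF1-7 at -0.043. DAN4 was -0.063 in double null cells over dot4 null cells, and CYC7, SEO1 and TIP1 were -0.087, -0.10 and 0.03 against the sum. With channel 2 alone, the double null had ERG26 at -0.038, HAP1 at 0.055, PAU6 at -0.10, SED1 at 0.34 and TIR3 at -0.0033. The dot4 null had CYC7 at -0.21, DAN4 at -0.15, ERG10 at 0.12, SEO1 at -0.14, TIR3 at 0.011 and UPC2 at -0.005. The ubp8 null had AUS1 at -0.068, CYC8 at 0.019, DAN1 at -0.034, ERG10 at 0.001, SED1 at 0.31, SEO1 at -0.084 and UPC2 at -0.037. UBP10 was -0.36 against the sum. Leaving out a set gave -0.025 to 0.033 for AUS1 and -0.04 to 0.082 for PAU18 in ubp8 null cells, -0.004 to 0.025 for CYC8 and -0.021 to 0.036 for ERG26 in double null cells, and -0.026 to 0.046 for DAN4 and -0.072 to 0.020 for HAP1 in dot4 null cells. Without the array labelled with the ubp8 null strain number, CYC8 was -0.032 in double null cells.

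The deviations of sets with the same number correlated at -0.26 to 0.27 over all ORFs, and those with different numbers at -0.33 to 0.29. As these ranges overlapped, the numbers were not taken to pair the samples. Same-number pairs with the dot4 null were all positive, at 0.05 to 0.27, and the others lay at -0.26 to 0.09. A smaller effect shared by a set is therefore possible. With the set number as a replicate block, 27, 26 and 25 members were called in double null cells, the dot4 null and the ubp8 null, where TIR3 lost its call (0.15, adjusted p = 0.0758).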
